A study of Homo sapiens with 4 samples.

Results

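The 10 genes described here are the core of the stress response run by the transcription factors ATF4 and CHOP, of 16717 genes in the table. They are ATF4, DDIT3 (which encodes CHOP), ATF3, ATF5, TRIB3, CHAC1, ASNS, SESN2, DDIT4 and PPP1R15A, taken by symbol. The set was proposed with the niraparib and DMSO values of these libraries already known, so the values of its members are a description and carry no p. RNA-Seq was done in Cal-62 cells treated with niraparib, an inhibitor of PARP1 and PARP2, in 2 libraries, and in Cal-62 cells treated with DMSO, the vehicle, in 2 libraries. Cal-62 is 1 established line from an anaplastic thyroid carcinoma, so differences between lines were not sampled. The sources used here give neither the concentration nor the time of niraparib for the RNA-Seq, and they do not say that the replicates came from separate cultures. All p-values below therefore measure only the spread between these 4 libraries, which may be technical. The comparison asked which transcripts differ after niraparib in these cells.

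The response begins at the initiation factor eIF2. Stress-activated kinases phosphorylate its alpha subunit, general translation then falls, and the mRNA of ATF4 is translated better because of short upstream reading frames. ATF4 protein, often paired with a C/EBP factor, raises transcription of genes for amino acid supply and of further regulators, among them DDIT3, and PPP1R15A closes the loop by dephosphorylating eIF2 alpha. RNA levels show neither phosphorylation nor translation, so these libraries do not measure the first steps of this chain. By puromycin labelling, the paper reported lower global translation in thyroid cancer cells treated with niraparib. It attributed this fall to lower DIMT1, a ribosome biogenesis gene, whose overexpression partially reversed the fall in Cal-62 cells. A part of the eIF2 route in that fall was not tested here.

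In niraparib-treated cells, 8 of the 10 genes had more RNA in both libraries than in either DMSO library, by 2.59-fold to 5.21-fold of the mean TPM, whereas ATF4 and ATF5 had overlapping groups. TPM scales the reads of a gene by its length and by the total of the library, so levels of different genes can be set side by side. In bulk RNA, more RNA per cell and more cells with that RNA cannot be told apart. All 10 members passed the filter on low values, which kept the 13377 genes that reached 1 TPM in 2 or more libraries. Across these genes, 41.9% had both niraparib libraries above both DMSO libraries. In limma on log2(TPM + 1), adjusted by Benjamini-Hochberg with a threshold of 0.05, 8 members of 10 were past the threshold and higher and 0 were lower (0 also at an unadjusted p under 0.05), where 20.8% of all genes tested were higher and 11.7% were lower. These member counts follow from how the set was chosen, and nothing is read from them. The median log2 fold change was 1.43 for the members and 0.07 for all genes tested.

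**Figure D1:**
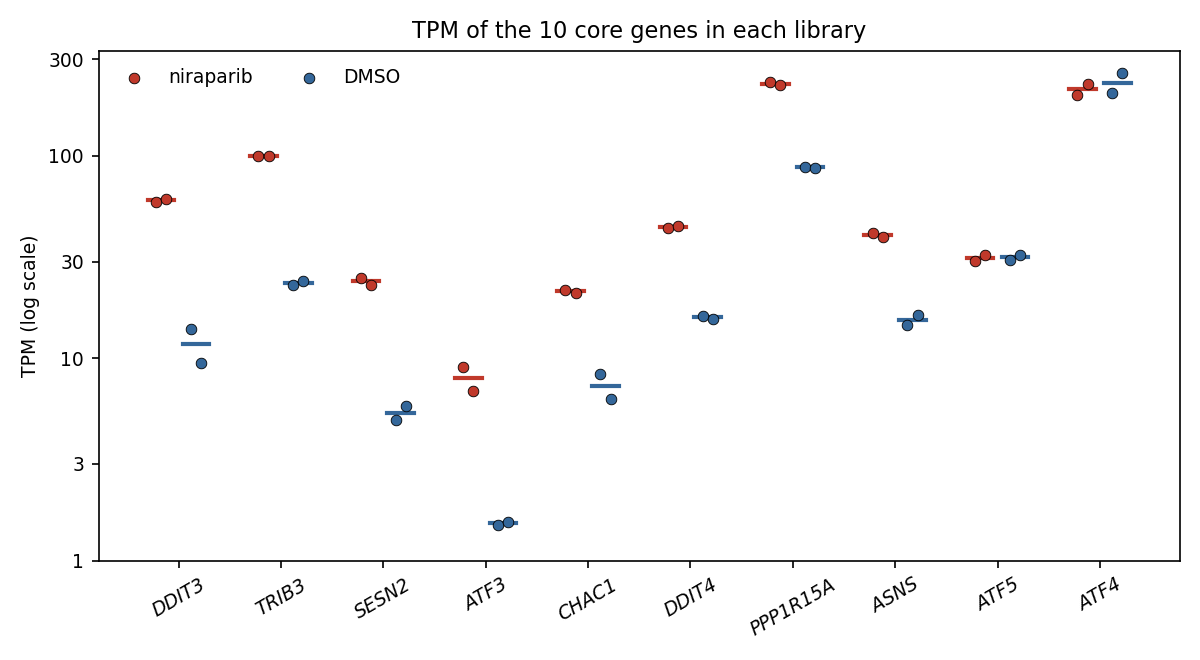
TPM of the 10 genes in each library on a log axis, with niraparib (red) left of DMSO (blue), points for libraries and bars for the mean of n = 2. The 8 genes on the left have no overlap between the groups, and ATF5 and ATF4 overlap.

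ATF4, the factor that gives the response its name, had 200.2 and 226.89 TPM in the niraparib libraries, against 204.5 and 255.2 TPM in the DMSO libraries. The groups overlapped, with DMSO replicate 2 the highest of the 4 libraries. ATF4 averaged 214 ± 18.9 TPM in niraparib-treated cells and 229.9 ± 35.9 TPM in DMSO-treated cells (SD, n = 2 each), and its log2 fold change was -0.10 (standard error 0.12). Without DMSO replicate 2 this value was 0.06, so its sign rested on 1 library. ATF5, a related bZIP factor whose mRNA also carries upstream reading frames, had 30.27 and 32.41 TPM with niraparib, against 30.52 and 32.37 TPM with DMSO. Its log2 fold change was 0.00 to 2 decimals (standard error 0.08). These were the only members whose groups overlapped.

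DDIT3, whose product CHOP drives genes of cell death and of recovery from stress, had 59.23 and 61.43 TPM in niraparib-treated cells, against 13.97 and 9.43 TPM in DMSO-treated cells. The niraparib libraries lay close together and the DMSO libraries differed from each other by 1.48-fold, the widest replicate gap of any member. The mean was 60.3 ± 1.56 TPM with niraparib and 11.7 ± 3.21 TPM with DMSO (SD, n = 2 each), with a log2 fold change of 2.29 (standard error 0.18) on the log2(TPM + 1) scale. Ordered from the highest log2 fold change down, DDIT3 stood at place 8 of 13377. The lowest niraparib library was 4.24-fold the highest DMSO library. ATF3, a bZIP repressor and activator induced by many stresses, had 9.03 and 6.87 TPM with niraparib, against 1.5 and 1.55 TPM with DMSO. ATF3 was the least abundant member in both groups, and its niraparib libraries differed by 1.31-fold while its DMSO libraries nearly coincided. Its log2 fold change of 1.82 (standard error 0.18) understates the ratio of the means, 5.21-fold, because the pseudocount of 1 weighs on low values, and with a pseudocount of 0.1 it was 2.30.

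TRIB3, a pseudokinase that binds ATF4 and CHOP and restrains the response, had 100.08 and 99.99 TPM in niraparib libraries, against 23.03 and 24.01 TPM in DMSO libraries. The replicates differed by at most 1.04-fold in either group, and the log2 fold change was 2.04 (standard error 0.06). PPP1R15A, known as GADD34, the stress-induced subunit that directs protein phosphatase 1 to eIF2 alpha, had 231.24 and 222.36 TPM with niraparib, against 87.86 and 87.05 TPM with DMSO. It had the smallest standard error of the members, 0.05, around a log2 fold change of 1.36. Both are feedback genes of the pathway, and in both the gap between the groups was wide against the replicate gap.

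SESN2, a leucine sensor that restrains the growth kinase mTORC1, had 24.98 and 22.99 TPM in niraparib-treated cells, against 4.93 and 5.78 TPM in DMSO-treated cells. DDIT4, or REDD1, which also restrains mTORC1, had 43.74 and 44.8 TPM with niraparib, against 16.15 and 15.61 TPM with DMSO. The log2 fold changes were 1.98 for SESN2 (standard error 0.12) and 1.42 for DDIT4 (standard error 0.07). The lowest niraparib library was 3.98-fold the highest DMSO library for SESN2 and 2.71-fold for DDIT4. Both were chosen with these values known, so nothing is read from their shared direction.

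ASNS, asparagine synthetase, had 41.33 and 39.85 TPM in niraparib libraries, against 14.5 and 16.27 TPM in DMSO libraries. CHAC1, an enzyme that breaks down glutathione, had 21.81 and 20.95 TPM with niraparib, against 8.39 and 6.25 TPM with DMSO. The groups of these metabolic genes did not overlap, and the DMSO libraries of CHAC1 differed from each other by 1.34-fold. The log2 fold change was 1.35 for ASNS (standard error 0.09) and 1.44 for CHAC1 (standard error 0.15). Without DMSO replicate 1 the value for CHAC1 was 1.63 and without DMSO replicate 2 it was 1.25.

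**Figure D2:**
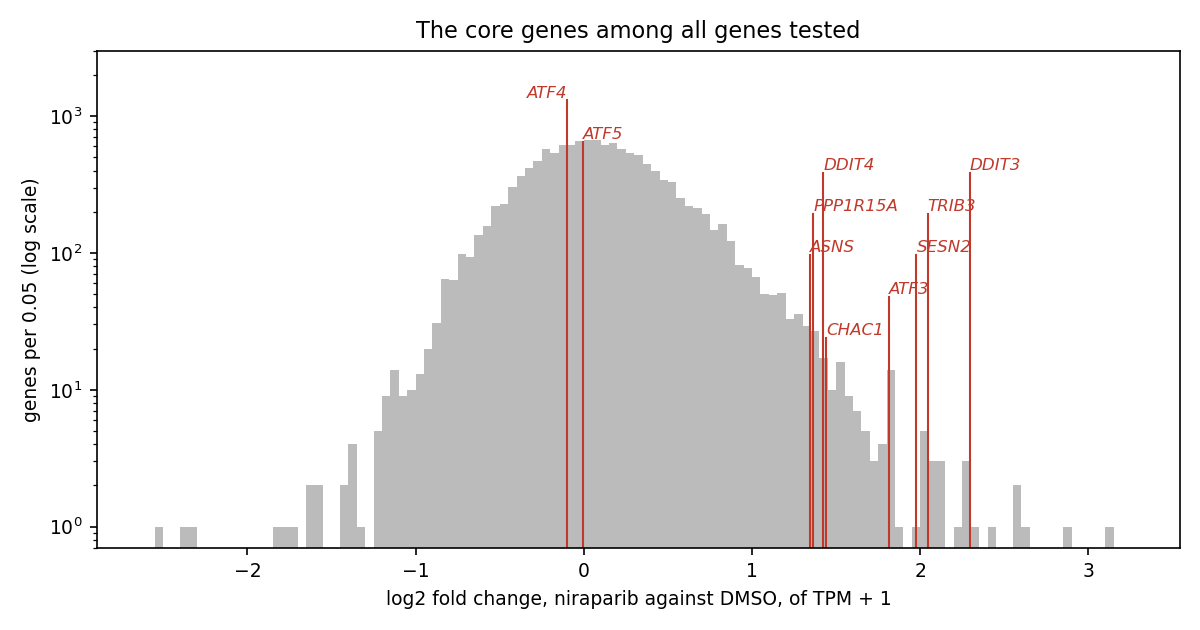
Histogram of the log2 fold changes (niraparib against DMSO, of TPM + 1) of all 13377 genes tested, in steps of 0.05 and with a log count axis, with a red line for each of the 10 genes. ATF4 (-0.10) and ATF5 (0.00) lie under the peak, and the other 8 lie between 1.35 and 2.29, in the upper tail.

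The order of the levels differed between the groups. In niraparib-treated cells PPP1R15A (222.36 to 231.24 TPM) and ATF4 (200.2 to 226.89 TPM) overlapped at the top. They were followed without overlap by TRIB3, DDIT3, DDIT4, ASNS, ATF5, SESN2, CHAC1 and ATF3. In DMSO-treated cells ATF4 was highest, with PPP1R15A, ATF5 and TRIB3 next and no overlap between these. DDIT4 and ASNS overlapped there at 14.5 to 16.27 TPM, and DDIT3, CHAC1, SESN2 and ATF3 followed without overlap. Set against ATF4 in the same library, TRIB3 had 49.99% and 44.07% of its TPM in the niraparib libraries, against 11.3% and 9.41% in the DMSO libraries. For DDIT3 this share was 29.6% and 27.1% with niraparib, against 6.83% and 3.70% with DMSO. ATF5 held 15.1% and 14.3% of the ATF4 level with niraparib, against 14.9% and 12.7% with DMSO, and these 4 shares lay close together.

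Promoters were searched for 2 motifs because the members are grouped by a transcription factor. One was TGATGNAA, the core of the composite element bound by C/EBP and ATF factors (CARE), and the other was TGACGTCA, the cAMP response element (CRE), both on either strand. The windows were those of RefSeq on GRCh38.p14, from 250 bases before to 50 bases after 1 start site per gene, and all 10 members matched an entry. The CARE core was in 3.67% and the CRE in 1.98% of 27305 promoters. Of the 11349 promoters whose gene is in the table, 1.63% held the CARE core and 3.17% the CRE. CHAC1, ASNS and ATF3 had 1 CARE core each and PPP1R15A had 1 CRE. The other 6 had neither in these letters and this window. The matches with 16 bases on either side, 5′ to 3′ on the strand of the gene and with the motif in capitals, show the bases that each gene has at the N and how far from the start site they lie.
CHAC1, chr15:40953246-40953285, plus strand, motif on the other strand, positions -209 to -202: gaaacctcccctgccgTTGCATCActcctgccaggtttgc
ASNS, chr7:97872453-97872492, minus strand, positions -68 to -61: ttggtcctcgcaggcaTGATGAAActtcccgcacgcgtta
ATF3, chr1:212565200-212565239, plus strand, positions -191 to -184: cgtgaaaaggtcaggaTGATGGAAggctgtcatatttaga
PPP1R15A, chr19:48872347-48872386, plus strand, positions -58 to -51: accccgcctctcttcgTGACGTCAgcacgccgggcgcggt

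A match is a description of letters and not of binding. The 4 genes with a match had log2 fold changes of 1.35 (ASNS), 1.36 (PPP1R15A), 1.44 (CHAC1) and 1.82 (ATF3). The members without a match had 2.29 (DDIT3), 2.04 (TRIB3), 1.98 (SESN2), 1.42 (DDIT4), -0.005 (ATF5) and -0.10 (ATF4). The members were chosen with these values known, so nothing is read from this split.

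Some members share exon bases with neighbouring genes, and the sources used here do not say whether reads were counted by strand. In GENCODE 44 lifted to GRCh37, DDIT3 shares 355 of its 1307 exon bases with MARS1, methionyl-tRNA synthetase, on the opposite strand, 58 with MBD6, and 105 with another protein-coding locus on the same strand that has no row in the table. MARS1 had 198 ± 4.91 TPM with niraparib and 177 ± 14.0 TPM with DMSO (SD, n = 2 each), with 0.16 as its log2 fold change (limma adjusted p = 0.12), against 2.29 for DDIT3. ATF5 shares 565 of 2892 exon bases with NUP62 on the opposite strand. NUP62 averaged 64.8 TPM with niraparib and 65.7 TPM with DMSO. ASNS shares 2415 of 4896 exon bases with a same-strand long noncoding RNA that has no row in the table. Without strand, reads of a gene and its antisense partner cannot be told apart, and the part of these overlaps in the values was not tested.

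Log2 fold changes moved with the GC content of the longest annotated transcript (Spearman's rho 0.51 over 12518 genes, none of them an independent replicate). With the genes cut into 10 equal bins by GC content, the median was -0.27 in the lowest bin and 0.36 in the highest. The members had a median GC content of 57.9%, against 48.1% over the genes tested, and ranged between ASNS at 42.7% and TRIB3 at 61.5%. After the trend was subtracted from each library, the log2 fold changes were 1.78 for TRIB3, 1.74 for SESN2, 1.21 for DDIT4, 1.18 for CHAC1 and 1.16 for PPP1R15A, lower than before. Those of DDIT3 (2.25) and ATF3 (1.84) moved little, and that of ASNS was 1.49, higher than before. ATF4 (-0.29) and ATF5 (-0.24) moved below 0. When the median of each library was removed as well, ATF4 had -0.36 and ATF5 -0.31, and the count of members past the threshold as lower was then 1 (ATF5). Over the 11 alternatives tried, which include leaving out each library, DDIT3 ranged between 2.03 and 2.56, and PPP1R15A between 1.09 and 1.39.

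**Figure D3:**
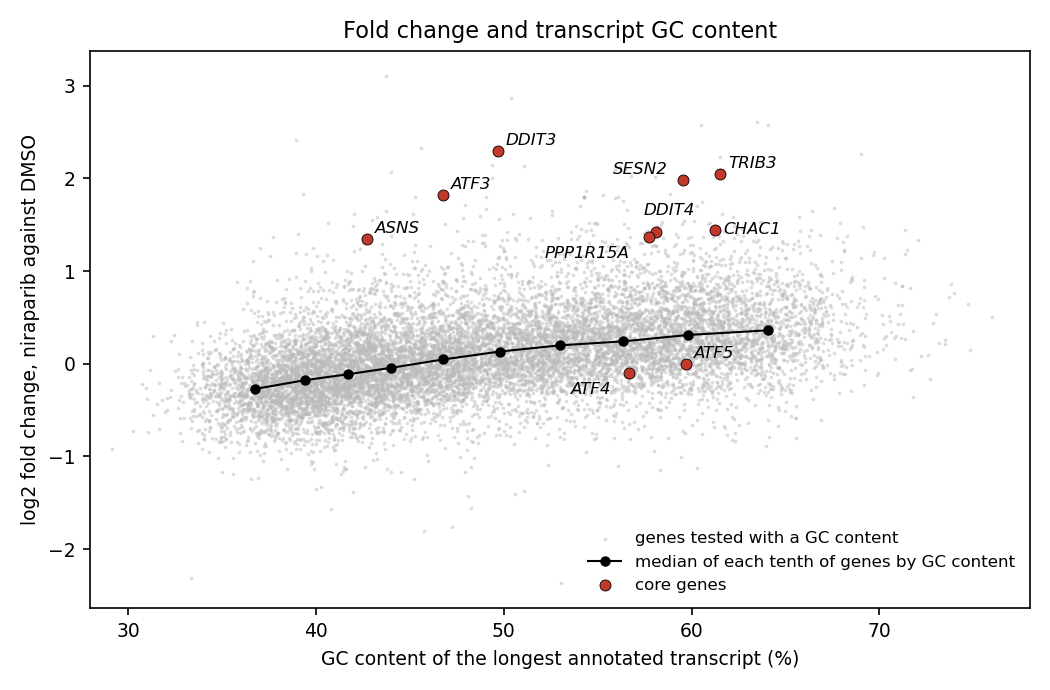
Log2 fold change (niraparib against DMSO) against the GC content of the longest annotated transcript in percent, with a grey point per gene, black points for the median of each of 10 equal bins of genes by GC content, and red points for the 10 genes. The medians run between -0.27 and 0.36, and ATF4 and ATF5 lie below the line while the other 8 lie above it.

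**Figure D4:**
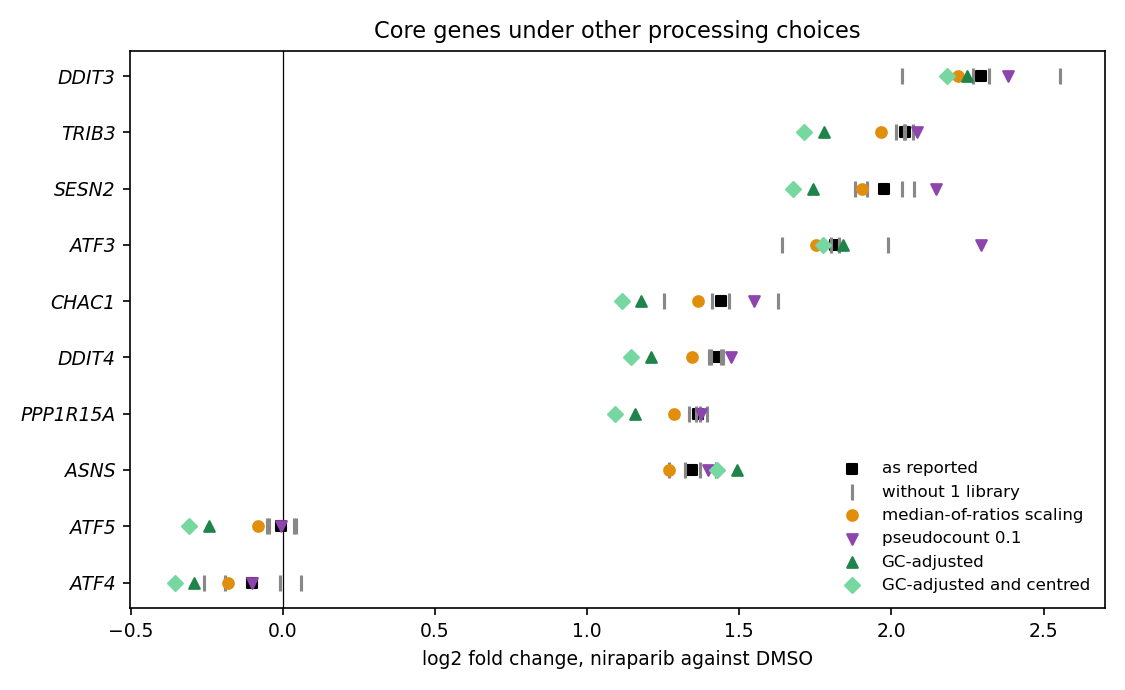
Log2 fold change of each of the 10 genes as reported (black squares), without each library in turn (grey ticks) and under other scaling, pseudocount and GC settings (coloured). ATF4 and ATF5 stay between -0.36 and 0.06, and the other 8 stay above 1.09.

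Across all genes tested, 2780 were higher and 1559 were lower, so that 64.1% of the calls were higher. This share was 50.5% with scaling by the median of ratios and 45.3% with GC adjustment and centring. The calls were fewer with 3 libraries, with 1211 higher and 698 lower without niraparib replicate 1, 1596 and 1186 without niraparib replicate 2, 1435 and 639 without DMSO replicate 1, and 1601 and 756 without DMSO replicate 2. The cells had markers of thyroid origin, with PAX8 at 195.54 and 206.68 TPM with niraparib and at 189.14 and 191.41 TPM with DMSO, and HHEX at 41.57 and 42.18 TPM with niraparib and at 38 and 41.96 TPM with DMSO. Epithelial markers summed to 3829.9 to 3897.5 TPM with niraparib, against 3525.4 to 3563.1 TPM with DMSO, over 6 genes of 6, where KRT19 held most of the difference, KRT18 was lower with niraparib and CDH1 was at 0.28 TPM or less. Mesenchymal markers summed to 4102.2 to 4133.5 TPM with niraparib, against 3193.8 to 3196.7 TPM with DMSO, over 5 genes of 5, where FN1 and VIM held the difference and CDH2 and TWIST1 were lower with niraparib. Of 5 immune markers only CD68 and CD14 have a row, and their sum was 36.1 to 40.7 TPM with niraparib and 22.65 to 22.86 TPM with DMSO. The part of these shifts in the values of the members was not tested, and CDH5 and KDR, the 2 endothelial markers with a row, summed to at most 0.60 TPM.

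A list of 23 genes held the eIF2 alpha kinases, eIF2, eIF2B, the phosphatase and factors around them, with EIF2A, which is not an eIF2 subunit. Of these, 0 rose and 7 fell in limma, EIF2A among the 7. The counts were 1 and 9 at an unadjusted p under 0.05, 0 and 3 with limma's plain empirical Bayes, and 1 and 5 with GC adjustment. NCK1, an adaptor protein named after its value was seen, had 0.54 with GC adjustment (limma adjusted p = 0.010). The median log2 fold change of the list was -0.15, and -0.06 with GC adjustment, against 0.07 for all genes tested in either fit. Of all genes tested, 20.8% were higher and 11.7% were lower, the shares to set beside the counts of this and the later lists. None of the 4 kinases passed, with log2 fold changes of 0.15 for EIF2AK1 (HRI), -0.29 for EIF2AK2 (PKR), -0.23 for EIF2AK3 (PERK) and -0.11 for EIF2AK4 (GCN2), and limma adjusted p of 0.11, 0.073, 0.32 and 0.23. EIF2AK2 passed as lower with scaling by the median of ratios (-0.37, adjusted p = 0.040), and with GC adjustment it had -0.04 (adjusted p = 0.81). PPP1R15B, the constitutive counterpart of PPP1R15A, had 15.72 and 15.56 TPM with niraparib, against 16.87 and 15.6 TPM with DMSO (log2 fold change -0.05, limma adjusted p = 0.71). EIF2S1, eIF2 alpha itself, fell to 190.1 ± 21.3 TPM with niraparib, against 267 ± 0.361 TPM with DMSO (SD, n = 2 each; log2 fold change -0.49, limma adjusted p = 0.011). This call was lost with GC adjustment (-0.21, limma adjusted p = 0.054) but held with GC adjustment and centring (limma adjusted p = 0.020). EIF2A, a separate initiation factor, fell by 0.66 on the log2 scale (limma adjusted p = 0.0031). The 7 lower calls were 4 without either niraparib replicate and 3 without either DMSO replicate.

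Among the bZIP partners and regulators, 8 of 20 rose and 1 fell, with a median log2 fold change of 0.19. CEBPB, which pairs with ATF4 and with CHOP, rose to 177 ± 1.07 TPM with niraparib, against 67.3 ± 6.46 TPM with DMSO (SD, n = 2 each; log2 fold change 1.38, limma adjusted p = 0.0016). The AP-1 members JUNB and JUN rose by 0.75 and 0.59 on the log2 scale (limma adjusted p = 0.0025 and 0.0030). CEBPG, another partner of ATF4, had 0.25 on that scale (limma adjusted p = 0.099), and it passed with GC adjustment at 0.48 (adjusted p = 0.014). NFE2L2, or NRF2, had -0.28 (limma adjusted p = 0.12). The gene that fell was FOSL1, an AP-1 member (log2 fold change -0.21, limma adjusted p = 0.012), and it did not pass without DMSO replicate 1 (adjusted p = 0.060). FOSL1 and, in the lists below, ATF6B, ATF1, BCAT1, ATG3, SYVN1, HSP90B1, DNAJB11, PDIA6 and TIGAR are named because they make up counts of 5 or fewer, after their values were seen.

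Of 14 paralogs of the members, 4 rose and 2 fell, with a median log2 fold change of 0.03. JDP2, the nearest relative of ATF3, rose to 11.42 and 11.7 TPM with niraparib, against 3.92 and 5.82 TPM with DMSO (log2 fold change 1.12, limma adjusted p = 0.011), and did not pass once either niraparib library was left out (adjusted p = 0.062 without replicate 1 and 0.056 without replicate 2). TRIB1, which acts in protein degradation, rose by 0.53 (limma adjusted p = 0.038) and did not pass when any 1 library was left out (adjusted p between 0.059 and 0.14). CHAC2, the paralog of CHAC1 that also cleaves glutathione, fell to 6.28 ± 0.219 TPM with niraparib, against 12.4 ± 0.297 TPM with DMSO (SD, n = 2 each; log2 fold change -0.88, limma adjusted p = 0.0057), whereas CHAC1 was higher with niraparib. CREB3, a membrane-bound bZIP factor, rose by 0.32 (limma adjusted p = 0.0094), a call lost with GC adjustment (0.14, adjusted p = 0.073). ATF6B, a relative of the ER stress sensor ATF6, rose by 0.39 and ATF1, of the CREB family, fell by 0.48 (limma adjusted p = 0.031 and 0.038), and neither passed with GC adjustment (adjusted p = 0.15 and 0.40). SESN1 had 1.17 and 1.32 TPM with niraparib, against 0.98 and 1.06 TPM with DMSO (limma adjusted p = 0.56). SESN3 was at 0.04 TPM or less in every library and TRIB2 was between 0.52 and 1.37 TPM, and neither passed the filter on low values. The 4 higher calls were 1 without niraparib replicate 1 and 2 without each of the other libraries, and the 2 lower calls were 1 without niraparib replicate 1, niraparib replicate 2 or DMSO replicate 1. With GC adjustment 1 was higher and 1 lower.

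The genes of amino acid supply, which ATF4 is known to raise, rose more often than they fell. Of 23 tested, 11 rose, 2 fell and 10 did not pass, where 20.8% of all genes tested were higher and 11.7% lower. The median log2 fold change was 0.27, against 0.07 for all genes tested. SLC6A9 (1.37) and SLC43A1 (1.28), named after their values were seen, rose the most (limma adjusted p = 0.0076 and 0.0054). SLC3A2, the heavy chain of several amino acid transporters, rose to 207 ± 1.54 TPM with niraparib, against 129 ± 5.52 TPM with DMSO (SD, n = 2 each; log2 fold change 0.68, limma adjusted p = 0.0024). Its light chain SLC7A5 fell to 81.7 ± 3.57 TPM with niraparib, against 131 ± 0.643 TPM with DMSO (SD, n = 2 each; log2 fold change -0.68, limma adjusted p = 0.0028). The other that fell was BCAT1, a branched-chain aminotransferase (-0.72, limma adjusted p = 0.0094). PHGDH, the first enzyme of serine synthesis, rose by 0.56 on the log2 scale (limma adjusted p = 0.0060). PSAT1, which acts after it, had -0.19 (limma adjusted p = 0.059), and it fell with scaling by the median of ratios (-0.27, adjusted p = 0.023). MTHFD2, a mitochondrial folate enzyme, had 74.93 and 82.4 TPM with niraparib, against 78.8 and 77.85 TPM with DMSO (limma adjusted p = 0.96). SLC7A11, the cystine transporter, stayed at 0.98 TPM or less in every library and was not tested. The lower calls numbered 4 with GC adjustment and 5 with centring as well.

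The cytosolic aminoacyl-tRNA synthetases went both ways, with 7 of 20 higher, 7 lower and a median log2 fold change of -0.04. WARS1 and AARS1, the enzymes for tryptophan and alanine, rose by 0.85 and 0.79 on the log2 scale (limma adjusted p = 0.0029 and 0.0017). The 7 lower calls were 1 when niraparib replicate 1 or DMSO replicate 1 was left out and 3 when DMSO replicate 2 was, and they were 3 with plain priors and 4 with GC adjustment.

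The list of death and secreted effectors had the highest median of the 8 lists, 0.70, with 15 of 23 higher and 1 lower. The lists were written with earlier results of these data known, so this ranking is a description. Some effectors are also known p53 targets, named below, and their part in the median was not tested. INHBE and VLDLR, among the 15, passed the filter on low values only through their niraparib libraries. GDF15, also among them, reached 1 TPM in only 1 DMSO library. TXNIP, an inhibitor of thioredoxin, rose to 39.1 ± 2.56 TPM with niraparib, against 3.67 ± 0.12 TPM with DMSO (SD, n = 2 each; log2 fold change 3.10, limma adjusted p = 8.41e-04). GDF15, a secreted stress hormone, rose to 9.35 and 8.28 TPM with niraparib, against 0.34 and 1.01 TPM with DMSO (log2 fold change 2.58, limma adjusted p = 0.0032). VEGFA, the angiogenic factor, rose by 1.44, STC2, a secreted glycoprotein, by 1.15, SQSTM1, an autophagy receptor, by 0.70, and TNFRSF10B, the death receptor induced by CHOP, by 0.47 on the log2 scale (limma adjusted p = 0.0023, 0.0071, 0.0018 and 0.0075). ATG3, an autophagy enzyme, fell by 0.46 (limma adjusted p = 0.0049).

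The ER chaperones and folding genes, a further part of the response to ER stress, had a median log2 fold change of -0.08, with 2 of 18 higher and 4 lower. HSPA5 (BiP), the main ER chaperone, had 221.86 and 235.48 TPM with niraparib, against 254 and 252.51 TPM with DMSO (log2 fold change -0.15, limma adjusted p = 0.061), and it fell with scaling by the median of ratios (-0.23, adjusted p = 0.018). HERPUD1, of ER-associated degradation, had 0.26 (limma adjusted p = 0.059). It passed with GC adjustment (0.27, limma adjusted p = 0.048) but not with GC adjustment and centring (limma adjusted p = 0.086). XBP1, the transcription factor of the IRE1 arm, rose to 94.0 ± 1.17 TPM with niraparib, against 57.8 ± 2.25 TPM with DMSO (SD, n = 2 each; log2 fold change 0.69, limma adjusted p = 0.0028). MANF, a secreted ER stress protein, fell by 0.32 (limma adjusted p = 0.012), and did not pass without niraparib replicate 1, DMSO replicate 1 or DMSO replicate 2 (adjusted p = 0.051, 0.054 and 0.057). SYVN1, a ligase of ER-associated degradation, rose by 0.47, and the chaperones HSP90B1, DNAJB11 and PDIA6 fell by 0.42, 0.24 and 0.20 on the log2 scale (limma adjusted p = 0.014, 0.016, 0.031 and 0.030). With GC adjustment the values of HSP90B1, DNAJB11 and PDIA6 were -0.18, 0.03 and -0.15, and none of these passed (limma adjusted p = 0.079, 0.67 and 0.058). With GC adjustment and centring, HSP90B1 and PDIA6 passed as lower (limma adjusted p = 0.027 and 0.017) and DNAJB11 did not pass (limma adjusted p = 0.70). The 2 higher calls were 1 without niraparib replicate 1 or without either DMSO replicate, and the 4 lower calls were 0 without DMSO replicate 1 and 1 without niraparib replicate 1 or without DMSO replicate 2. Higher calls numbered 4 with GC adjustment, and lower calls 0 with plain priors, 7 with scaling by the median of ratios and 8 with GC adjustment and centring.

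SESN2, ATF3 and DDIT4 are also known targets of p53, so a list of p53 targets was counted too. That list is not complete. The known p53 targets BBC3, PMAIP1, GADD45A, GDF15 and TNFRSF10B are on the list of death and secreted effectors instead, where each was higher. TNFRSF10A, among the effectors, and SESN1, among the paralogs, are also p53 targets and did not pass. BBC3, PMAIP1, GADD45A and TNFRSF10A are named after their values were seen. None of these genes is in the p53 counts. Of 16 tested on the p53 list, 6 rose and 1 was called lower, with a median log2 fold change of 0.27. The other 9 did not pass, with log2 fold changes between -0.53 for MDM2 and 0.57 for TP53INP1, both named after their values were seen. Limma adjusted p were 0.054 for MDM2 and 0.061 for TP53INP1. TP53INP1 passed with GC adjustment (0.83, adjusted p = 0.023). CDKN1A, the cell cycle inhibitor p21, rose to 154.14 and 162.72 TPM with niraparib, against 35.73 and 41.14 TPM with DMSO (log2 fold change 2.02, limma adjusted p = 0.0011). PHLDA3, an inhibitor of AKT, rose by 0.56 (limma adjusted p = 0.020) and did not pass without niraparib replicate 2, DMSO replicate 1 or DMSO replicate 2 (adjusted p = 0.054, 0.071 and 0.064) or with GC adjustment (adjusted p = 0.11). The lower call was TIGAR, a regulator of glycolysis, with 0.17 and 0.95 TPM with niraparib, against 1.84 and 2.59 TPM with DMSO (limma adjusted p = 0.048). It reached the filter on low values only through its DMSO libraries, and it did not pass with no filter, a pseudocount of 0.1, plain priors or GC adjustment (adjusted p = 0.063, 0.076, 0.071 and 0.077) or without niraparib replicate 1 (adjusted p = 0.15). The 6 higher calls were 2 without niraparib replicate 1 and 1 without each of the other libraries, and they were 2 with GC adjustment and centring. Over all 8 lists together, 53 of 156 genes tested were higher and 25 lower, where 20.8% of all genes tested were higher and 11.7% lower. With GC adjustment the medians were 0.12 for the bZIP partners, 0.11 for the paralogs, 0.29 for amino acid supply, -0.07 for the synthetases, 0.51 for the effectors, 0.00 for the ER chaperones and 0.18 for the p53 targets.

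**Figure D5:**
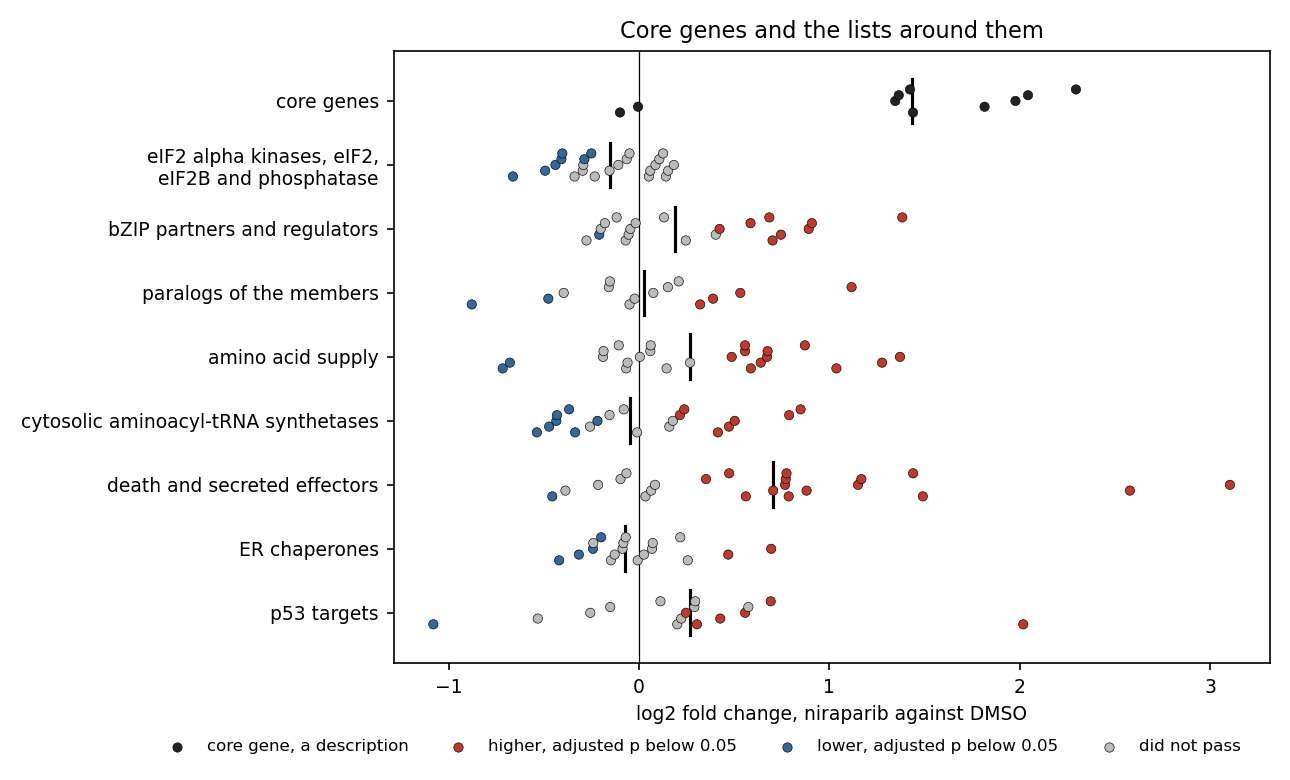
Log2 fold change (niraparib against DMSO) of each tested gene of the 8 lists, with red for higher and blue for lower at a limma adjusted p below 0.05, grey for not passed, black points for the 10 core genes, which carry no test, and a vertical bar for the median of each row. The core genes have a median of 1.43 and the lists between -0.15 and 0.70.

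The genes whose 4 values lay closest to those of DDIT3, by Euclidean distance of log2(TPM + 1) after the mean of each gene was removed and with the members left out, were PLAT, LCN2, SAA1, APOE and KCNG1, at distances between 0.34 and 0.57. PLAT, tissue plasminogen activator, had 115.43 and 116.18 TPM with niraparib, against 22.63 and 21.89 TPM with DMSO. LCN2 and SAA1 encode secreted acute-phase proteins, APOE a lipid carrier and KCNG1 a potassium channel subunit. None of these 5 is on the lists above, and with 4 libraries in 2 groups their likeness is mainly the size of the difference between the groups.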

How the data were processed

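RNA was measured in 2 libraries of niraparib-treated and 2 of DMSO-treated Cal-62 cells, grouped by the treatment in their labels. The deposited values are TPM that the authors computed within each library, although the table is called counts. The methods name Trim Galore, STAR and hg19, the submitters' processing notes list HISAT2, hg38 and mm10 beside Trim Galore, and the tool and annotation behind the TPM are not given in the sources used here. TPM keeps no read counts (library sums 994264 to 995353), so depth is unknown and precision rests on the spread between libraries.

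Genes were compared as log2(TPM + 1) in limma 3.58.1 (R 4.3.3) with trend and robust priors and Benjamini-Hochberg adjustment over 13377 genes. GC content is that of the longest GENCODE 44 transcript, found for 88.8% of symbols, and GC-adjusted values had a loess trend (span 0.5) of each library's deviation from the gene mean subtracted. The fit was repeated with median-of-ratios scaling, no filter, a pseudocount of 0.1, plain priors, a replicate block, GC adjustment with and without centring, and leaving out each library, where the lone library of a group is assumed to vary like the other group.

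Members and gene lists were chosen with earlier results of these data known. The text names all members, list genes picked by name, of which 25 were tested, and the 2 genes of each list with the smallest p. CEBPE, NUPR1, EGLN3, DDIT4L, SLC7A3, FGF21 and ADM2, and of the markers TG, TSHR, NKX2-1, SLC5A5, PTPRC, CD3E, MS4A1, PECAM1 and VWF, were not analysed here.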

Additional observations from a re-analysis of the deposited data

How the results depend on the processing

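The median log2 fold change of the members was 1.36 with scaling by the median of ratios, 1.51 with a pseudocount of 0.1, 1.35 with GC adjustment, 1.29 with GC adjustment and centring, and between 1.41 and 1.54 without 1 library. Over all genes, GC adjustment and centring gave 1503 higher calls and plain priors gave 1017 lower calls. There were 2129 higher and 2086 lower calls with scaling by the median of ratios, and 1969 and 1299 with GC adjustment. Without 1 library the calls numbered 1211 to 1601 higher and 639 to 1186 lower over all genes, and 35 to 40 higher and 8 to 20 lower over the lists together, where plain priors gave 10 lower. The replicate block gave 2400 higher and 1339 lower calls over all genes, and of the named genes TRIB1, ATF1, PDIA6 and DNAJB11 lost their calls in it (adjusted p between 0.051 and 0.059). Deviations of equal replicate numbers correlated at -0.015 across genes, so libraries of equal number shared no broad deviation. This value cannot show whether the libraries were prepared in pairs. TRIB1 also lost its call with scaling by the median of ratios (adjusted p = 0.056) and with no filter (adjusted p = 0.052). PPP1R15B, which did not pass, turned to 0.074 with GC adjustment and 0.0087 with GC adjustment and centring, and lay between -0.10 and 0.0035 without 1 library. DNAJB11 turned to 0.035 with GC adjustment. MTHFD2, which did not pass, had -0.075 with scaling by the median of ratios and lay between -0.063 and 0.072 without 1 library. The cause of these shifts was not tested. Since TPM holds no counts, the counting error of the members cannot be given.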
